A study of Mus musculus with 44 samples.

Results

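The genes described here are the mouse zinc-finger genes whose symbol is Zfp followed by a number. Of 338 such genes with a RefSeq accession in the files, 160 had at least 10 RPM (the authors' normalised read count, scaled to the reads of the library) in the RNA-seq library of embryonic hippocampus, adult cortex or unstimulated DIV14 cortical culture, and these 160 are the members. The files listed 17158 RefSeq accessions in all, and 8174 other genes met the same RNA-seq cutoff. The members were thus chosen by their RNA-seq levels in those 3 libraries, which are given below as a description only. Of the members, 91 met the cutoff only in embryonic hippocampus, 4 only in adult cortex and 3 only in the DIV14 culture, while 31 met it in exactly 2 of the libraries and 31 in all 3. Just inside the cutoff were Zfp2 and Zfp3 (10.1 RPM each) and Zfp667 (10.2 RPM), and just outside it were Zfp787, Zfp653 and Zfp867 (9.96 RPM each). Of the 178 numbered genes that were not members, 9 had no read in the 3 libraries and 5 reached 10 RPM in some other library.

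Most of these genes encode C2H2 zinc-finger proteins, in which each finger folds around a zinc ion held by a pair of cysteines and a pair of histidines and contacts a short stretch of DNA or RNA. Many carry a KRAB domain, which recruits Trim28 and, through it, the H3K9 methyltransferase Setdb1 and HP1 proteins, to silence transposable elements and imprinted loci. Others lack a KRAB domain and act as developmental transcription factors, as cofactors of histone-modifying complexes or as RNA-binding proteins, and several are needed for neurogenesis.

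In the proteins translated from the RefSeq coding sequences on GRCm38.p6, 59 members had a KRAB motif together with fingers (36.9% of members, against 68.0% of the numbered genes that were not members). Another 72 had no KRAB motif and 5 or more fingers, 28 had no KRAB motif and 1 to 4 fingers, and 1, Zfp365, had no finger matching the motif. The motif search can miss diverged domains. The median member had 10 fingers (range 0 to 33), and cysteine and histidine made up 4.75% and 5.72% of its residues, against medians of 1.78% and 2.41% in 8115 other genes past the cutoff with an intact coding sequence. The median protein had 617 residues against 543, and the median gene 6 exons against 11. Neighbours were common, because 96 members (60.0%) lay within 1 Mb of another numbered Zfp gene, and 42 members lay on chromosome 7. Such clusters hold near-identical copies, but the coding sequence of most members was distinct: in 12 members (7.5%) fewer than 90% of the 30-mers occurred once in the genome, compared with 48.3% of the numbered genes that were not members. The coding sequence of 3 members (Zfp329, Zfp628 and Zfp91) overlapped an exon of another gene on the same strand, and that of 12 members one on the opposite strand (Zfp131 among those described below), so the reads of these genes are uncertain where the counting could split or share them.

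A repeat shared by many of these mRNAs encodes the linker between fingers, the run threonine-glycine-glutamate-lysine-proline, which was found in 105 members (65.6%) and in 0.715% of the other genes. To show it, the first linker stretch is printed for some members from the low and the high end of translational efficiency (TE), the number of ribosome-protected fragments (RPFs) relative to RNA-seq reads. Each runs 5′ to 3′ over 27 nt of a coding exon, and the capitals mark the last His codon of a finger and the first Cys codon of the following finger. The first set holds members with low TE, at chr7:24105175-24105201 (plus strand) and chr17:28201037-28201063 (plus) of GRCm38.p6.
Zfp180: CACacaggggaaaagccctacaagTGC
Zfp523: CACacgggtgagaaaccatacaagTGC
The second set holds members whose mean TE was high among the members (1.31 and 1.09), at chrX:112632849-112632875 (plus) and chr17:32775447-32775473 (minus). The median TE of the other genes ran from 0.68 to 1.45 between samples.
Zfp711: CATactggtgagaagccatatcagTGT
Zfp871: CACacgggggagaaaccgtacgtgTGC
Across 103 members there were 489 such stretches with 458 different sequences. The His codon was CAC in 74.6% of them, the Glu codon GAG in 77.3% and the Cys codon TGT in 64.8%. Each stretch printed occurred at 1 place in the genome. The first stretch of Zfp386, also among the 5 members with the lowest mean TE but not printed, occurred at 2. Of the 5 members with the highest mean TE, Zfp207, Zfp462 and Zfp532 had no such stretch.

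The samples were 9 primary cortical cultures, 3 brain tissues and visual cortex from 8 mice, all of the strain C57BL6J where a strain was named. The cultures came from cortices of newborn pups of both sexes and were treated with AraC. They were harvested at day 10 or 14 in vitro (DIV10, DIV14), unstimulated, 30 min after BDNF or after glutamate with glycine (glu/gly), 10 or 30 min after KCl depolarization, or after transduction at day 5 with a lentivirus that expressed EGFP from a synapsin promoter, alone (GFP) or with miR-1 or miR-155. The tissues were hippocampi of E16 embryos, the hippocampus of 1 adult male and the cortex of 1 adult male. Visual cortex was taken from male mice of 6 to 7 wk kept in the dark for 1 wk, with no light (4 mice, dark) or after 1 h of light (4 mice, light). RNA-seq was used here from 12 samples, RPFs from 10 and tail lengths from all 20, and every culture and tissue was a single library. No test between cultures or tissues is therefore given, and intervals on their read ratios are 95% Clopper-Pearson intervals, which cover counting error only. RNA was poly(A)-selected in both hippocampi and rRNA-depleted in adult cortex and 6 cultures, so this step cannot be told apart from the tissue where they are compared. The RPF libraries of the miR-1 and miR-155 cultures carried contradictory labels and were not used.

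Reads on listed genes ranged from 448022 to 7689624 for RNA-seq and from 2812215 to 23212489 for RPFs, and tail tags from 86841 to 4812273. Summed RPM of 6 neuronal markers was 2992 in adult hippocampus, 1385 in adult cortex, 358 in unstimulated DIV14 culture and 141 in embryonic hippocampus, with each marker detected in all 4. The RPFs of single genes scattered more in some libraries than in others. Of genes with at least 100 RPFs expected from their RNA-seq level, 1.88% in embryonic hippocampus, 1.62% in adult hippocampus, 1.15% after 10 min of KCl and 0.941% after 30 min had under 1/10 of the expected number, against 0.133% to 0.299% in the other 6 samples. Members were among them, with 6 of 151 (3.97%) in embryonic hippocampus and 6 of 75 (8%) in adult hippocampus. There were 2 of 58 (3.45%) after 10 min of KCl, 1 of 49 (2.04%) in adult cortex and none in the remaining samples. The shares of members were thus above those of all genes in both hippocampi, after 10 min of KCl and in adult cortex.

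The RNA-seq levels of the members are described first. Their median was 21.3 RPM in embryonic hippocampus, 9.87 in adult hippocampus, 7.01 in adult cortex, 7.42 in unstimulated DIV14 culture and 4.99 to 8.26 in the other 8 cultures. The medians of the other genes past the cutoff were 27.2, 19.5, 13.3 and 13.1 RPM in the same 4 samples. Members were thus low-abundance mRNAs. At 10 RPM or more stood 151 members (94.4%) in embryonic hippocampus, 75 (46.9%) in adult hippocampus, 49 (30.6%) in adult cortex and 53 (33.1%) in DIV14 culture. Of the other genes past the cutoff 89.4%, 73.2%, 60.8% and 62.1% did, also the most in the embryo. The authors' RPM totals include reads outside the listed genes, so RPM levels are not strictly comparable between libraries. Per kb of counted coding sequence, the scale on which genes can be compared, the median member stood at 10.7 RPM per kb in embryonic hippocampus and 3.49 in adult cortex, against 18.5 and 8.87 for the other genes. By class, the members with 1 to 4 fingers had the highest median in embryonic hippocampus (24.2 RPM per kb), ahead of those with 5 or more fingers (10.4) and the KRAB class (9.39).

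**Figure D1:**
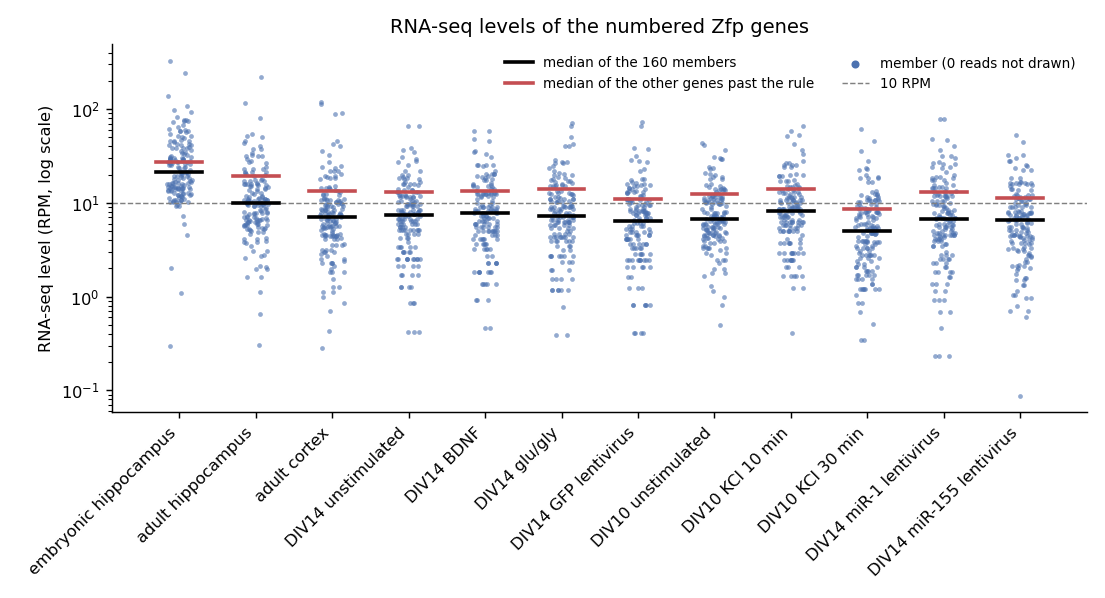
RNA-seq level (RPM, log scale) of each of the 160 members in 12 single libraries, with the medians of the members (black) and of the 8174 other genes past the rule (red) and the 10 RPM cutoff (dashed). The members' median lay below that of the other genes in every library, and the members stood highest in embryonic hippocampus, one of the 3 libraries used to choose them. The median of the other genes was also highest there.

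The most abundant members differed between tissues. In embryonic hippocampus they were Zfp428 (70.6 RPM per kb), Zfp664 (62.4), Zfp637 (61.3), the spindle-assembly factor Zfp207 (52.9) and the KRAB gene Zfp266 (47.1). In adult cortex Zfp365, which encodes a protein of neuronal centrosomes and processes, led with 96.6 RPM per kb, ahead of Zfp644 (23.5), a partner of the G9a methyltransferase complex, the ubiquitin ligase Zfp91 (21.5), the RNA-binding protein Zfp106 (21.01) and the transcription factor Zfp148 (18.2). Unstimulated DIV14 culture shared genes with both lists, with Zfp428 (30.97), Zfp207 (25.3), Zfp771 (21.1), Zfp637 (19.3) and Zfp365 (18.7) at the top. With 1 library per sample, the order of genes this close was not tested.

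Adult hippocampus was then set beside embryonic hippocampus. More members were lower than higher in the adult. In RNA-seq 75 of the 154 members past the 10 RPM filter were lower by 2-fold or more and 3 were higher, while 27.6% of all genes tested were lower and 19.7% higher (47.3% either way). The members' median log2 ratio was -0.97, against -0.31 for the other genes. The count depended on the scaling: it was 96 lower and 3 higher with the authors' RPM. With the median ratio set to 0 it was 49 lower and 4 higher. Because 91 members entered through their embryonic level alone, this lean toward the embryo is in part what the rule chose. Among the 75 members with 10 RPM or more in adult hippocampus, a library the rule did not use, 24 were lower and 3 higher, 32.0% against 15.2% of the other genes lower, with medians of -0.64 and 0.07. This setting was chosen after seeing the data.

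RPFs were not read by the rule, but they come from the same embryonic tissue whose RNA-seq level chose most members, and the 10 RPM filter also passes genes through the embryo alone, so these counts too are a description. They gave 77 lower and 12 higher members of 135, with 33.6% of all genes tested lower and 25.8% higher (59.4% either way), and medians of -1.35 and -0.29. The RPF split was 78 lower and 11 higher with the authors' RPM, and 68 lower and 15 higher with the median ratio set to 0. With the 10 RPM requirement in adult hippocampus RNA-seq, 39 of 75 members were lower and 8 higher in RPFs, and the medians were -1.16 and 0.04. Of the 132 members past the filter in both assays, 45 were lower in both and 2 higher in both, 3 were lower in RNA-seq and higher in RPFs, and none was higher in RNA-seq and lower in RPFs. By class, in RPFs 26 of 42 KRAB members, 38 of 66 members with 5 or more fingers and 13 of 26 members with 1 to 4 fingers were lower, under the same choice of members.

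Tissue composition changed between these libraries as well. The summed level of 7 progenitor and immature-neuron markers was 1160 RPM in embryonic and 26.1 RPM in adult hippocampus, that of 6 neuronal markers 141 and 2992 RPM, and that of 6 oligodendrocyte markers 16.3 and 622 RPM, with none of the progenitor or neuronal markers at 0 in either. Their part in the members' ratios was not tested. In bulk tissue, fewer cells of a type and less RNA per cell cannot be told apart.

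Of 23 members listed for a known role, 13 were lower by 2-fold or more in adult hippocampus in RNA-seq and 15 in RPFs, while Zfp365 was higher in both and Zfp281 in RPFs. Over all genes tested 27.6% and 33.6% were lower, and among the members 75 of 154 and 77 of 135. Zfp462, a chromatin regulator linked to a neurodevelopmental disorder, had 5480 RNA-seq reads (329 RPM) in the embryo and 1077 (54.7 RPM) in the adult, a log2 ratio of -2.27 (interval -2.36 to -2.17), and its RPFs had a log2 ratio of -2.59 (-2.66 to -2.53). Zfp423 and its paralog Zfp521, both with 27 fingers and both regulators of precursor differentiation, had log2 RNA-seq ratios of -1.81 and -2.65, and RPF ratios of -2.42 and -5.83. Zfp57, the KRAB protein that maintains genomic imprints, had 466 RNA-seq reads in the embryo and 6 in the adult (27.96 and 0.305 RPM, log2 ratio -6.20) and 1683 and 137 RPFs (log2 ratio -3.52, -3.78 to -3.27). Both assays thus placed these 4 genes on the embryonic side. Zfp711, a gene of X-linked intellectual disability, was at 228 and 81 reads in RNA-seq (log2 ratio -1.41) and at 3165 and 364 RPFs (-3.02). Of the genes whose proteins work with chromatin or polymerase complexes, Zfp217, a CoREST partner, had log2 ratios of -2.98 in RNA-seq and -2.21 in RPFs. Zfp609, which binds the cohesin loader and Integrator, had -1.01 and -2.45, and Zfp326, a subunit of the DBIRD splicing and elongation complex, -1.54 and -1.67. The SUMO ligase Zfp451 (-1.05 and -1.88) and Zfp335, a gene of microcephaly (-0.86 and -1.64), leaned the same way.

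Other members stayed within 2-fold in RNA-seq. Zfp106 had 4007 reads (240 RPM) in embryonic and 4390 reads (223 RPM) in adult hippocampus, a log2 ratio of 0.21 (0.15 to 0.27) when reads were scaled by reads on listed genes, as in every ratio here. On the authors' RPM scale, whose totals include other reads, the adult was the lower of the pair for Zfp106, Zfp281, Zfp180 and Zfp35, whose ratios here are between 0.05 and 0.21. The log2 RNA-seq ratios of Zfp148, Zfp281 and Zfp91 were -0.23, 0.05 and -0.26. The log2 RPF ratios of these 4 genes ranged from -0.92 for Zfp91 to 1.12 for Zfp281. Of these only Zfp281, a regulator of pluripotency genes, passed 2-fold, and only in RPFs. The imprint regulator Zfp445, a KRAB gene like Zfp57, had log2 ratios of -0.36 in RNA-seq and -0.43 in RPFs.

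Zfp365 and Zfp831 were the exceptions, higher in the adult in both assays. Zfp365 had 34 RNA-seq reads in the embryo and 2298 in the adult (2.04 and 117 RPM, log2 ratio 6.16, 5.67 to 6.69) and 0 and 2046 RPFs, at least 731-fold higher when the 0 is set at the floor of 3 RPFs. Zfp831 had 5 and 544 RNA-seq reads (0.300 and 27.6 RPM, log2 ratio 6.84, 5.61 to 8.47) and 1 and 1985 RPFs (log2 ratio 11.05, 8.58 to 16.36). Both were also well above the cultures in adult cortex, where Zfp365 had 114 RPM and Zfp831 13.2 RPM, against 22.04 and 0.424 RPM in unstimulated DIV14 culture. Zfp938 was the remaining member higher in RNA-seq (76 and 214 reads), but it had fewer RPFs in the adult (150 and 31). Its adult RPFs were among the member counts described above as far below the number expected from RNA-seq. The part of this loss in its RPF ratio was not tested. Zfp938 did not pass the RPM filter in RPFs, so it was absent from the counts of members past the filter in both assays.

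For several genes at the extremes of the RPF ratio the assays parted. Zfp41 and Zfp81 were lower, and Zfp831 and Zfp365 higher, in adult hippocampus in both assays. The lowest ratios belonged to Zfp180 (1 RPF in the adult, 548 in the embryo), Zfp41 (3 and 1296), Zfp35 (3 and 499), Zfp2 (0 and 496) and Zfp81 (4 and 566). Their log2 RNA-seq ratios were 0.18 for Zfp180, -3.93 for Zfp41, 0.05 for Zfp35, -0.32 for Zfp2 and -2.17 for Zfp81, and the intervals of Zfp180, Zfp35 and Zfp2 included 0. After Zfp831 and Zfp365, the highest RPF ratios belonged to Zfp386 (281 RPFs in the adult, 5 in the embryo), Zfp786 (437 and 23) and Zfp672 (354 and 28), with log2 RNA-seq ratios of -0.26, -1.69 and -0.38. Zfp180 and Zfp35 in the adult and Zfp386 and Zfp786 in the embryo were among the members with under 1/10 of the expected RPFs. These are single libraries in which such losses were more frequent than in the other samples, and their part in these ratios was not tested.

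**Figure D2:**
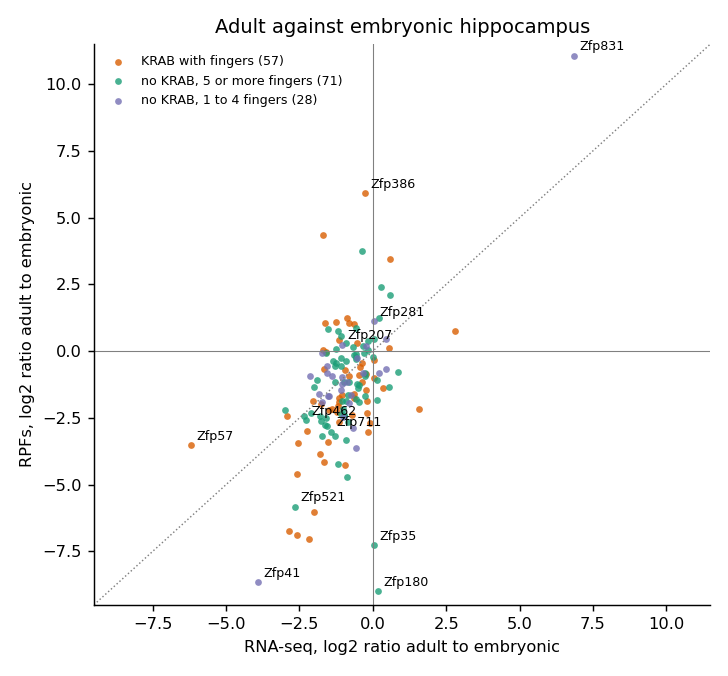
Log2 ratio of adult to embryonic hippocampus in RNA-seq (horizontal) and RPFs (vertical) for 156 members, coloured by class, with equal ratios on the dotted line. 4 members with 0 RPFs in 1 of the hippocampi (Zfp2, Zfp365, Zfp558 and Zfp605) have no ratio and are not drawn. Most points lie in the lower left, Zfp831 lies alone at the upper right, and Zfp180 and Zfp35 lie far below the line with RNA-seq ratios near 0.

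The partners of KRAB proteins were then counted. In a fixed list of 24 genes of the Trim28, H3K9 and HUSH silencing machinery, 16 of 23 tested were lower in adult hippocampus by 2-fold or more in RNA-seq and 15 of 22 in RPFs, where 27.6% and 33.6% of all genes were, and none was higher (19.7% and 25.8% of all genes). Trim28, the corepressor itself, had log2 ratios of -1.93 in RNA-seq and -1.60 in RPFs. The methyltransferases Setdb1 (-1.98 and -2.71) and Dnmt1 (-2.15 and -2.73) were also lower, as was Uhrf1, which guides Dnmt1 to replicating DNA (-7.11 and -9.12). Atrx, a chromatin remodeller of H3K9-methylated repeats, had ratios of 0.74 and 0.34, and the HUSH subunit Mphosph8 0.47 and 0.13, both under 2-fold.

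The other single-library comparisons follow. Adult cortex against unstimulated DIV14 culture compares 2 libraries of the rule, so its RNA-seq counts are only a description. In RNA-seq 5 of 69 members were higher in cortex (Zfp831, Zfp612, Zfp365, Zfp800 and Zfp106) and 11 lower, led by Zfp428 at a log2 ratio of -1.996 (32 reads against 38), with 17.5% of all genes higher and 20% lower (37.5% either way). This split also depended on the scaling: it was 10 higher and 7 lower with the authors' RPM, and 14 higher and 5 lower with the median ratio set to 0. In RPFs 6 of 103 were higher and 5 lower, with 9.78% and 9.86% of all genes (19.6% either way). The members' medians were -0.08 in RNA-seq and -0.17 in RPFs, close to those of the other genes (-0.24 and -0.06).

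Between adult cortex and adult hippocampus, 10 of 82 members were higher in cortex and 6 lower in RNA-seq, with 8.46% and 9.05% of all genes (17.5% either way), and 24 of 109 were higher and 12 lower in RPFs, with 12.2% and 10.2% (22.4% either way). The RNA-seq split turned with the authors' RPM in place of reads on listed genes, to 2 higher and 25 lower, and the RPF split became 23 and 19, so no direction is given for the members in this comparison. With the median ratio set to 0 the splits were 10 and 4 in RNA-seq and 24 and 12 in RPFs. Those higher in cortex RNA-seq included Zfp871, Zfp644 and Zfp292 (log2 ratios 1.62, 1.40 and 1.14), and those lower included Zfp423 (-1.67), Zfp609 (-1.32) and Zfp462 (-1.005). RNA was poly(A)-selected in hippocampus and rRNA-depleted in cortex, and the tissues came from different animals.

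In culture, DIV10 against DIV14 gave 2 higher and 3 lower members of 63 in RNA-seq (4.17% and 2.92% of all genes, 7.1% either way) and 2 higher and 1 lower of 98 in RPFs (5.23% and 4.35%, 9.58% either way). Zfp365 was lower at DIV10 in both, with log2 ratios of -1.20 (53 reads at DIV10, 52 at DIV14) and -1.37 (151 and 179 RPFs), the younger culture being the more deeply sequenced. Zfp462 was higher at DIV10 in RNA-seq (log2 ratio 1.14) and Zfp57 in RPFs (1.34), as in the embryonic hippocampus. The remaining called members were Zfp410, Zfp667 and Zfp952 in RNA-seq and Zfp768 in RPFs, named here after their values were seen. The DIV10 and DIV14 cultures were the controls of separate stimulation experiments. Day in vitro therefore cannot be told apart from the preparation of the cultures and libraries.

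Few members passed 2-fold after stimulation. The BDNF and glu/gly cultures share the unstimulated DIV14 culture as reference. After BDNF 1 of 61 members was higher in RNA-seq (Zfp180, 42 reads against 22) and 1 of 100 in RPFs (Zfp263, 69 against 37), with 0.924% and 0.305% of all genes higher, and none was lower (1.28% and 0.988%, or 2.2% and 1.29% either way). After glu/gly 1 of 63 was lower in RNA-seq (Zfp667, 14 reads against 24, log2 ratio -1.02), with 1.54% of all genes lower, and none was higher (2.66%, 4.21% either way). None of 95 passed in RPFs (0.196% higher, 0.614% lower and 0.81% either way). The miR-1 and miR-155 cultures, which share the GFP culture as reference, had no member past 2-fold in RNA-seq among 54 and 52 tested (1.34% higher, 2.03% lower and 3.37% either way for miR-1, 0.348%, 1.21% and 1.55% for miR-155).

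After KCl, with the DIV10 culture as shared reference, no member of 67 passed in RNA-seq at 10 min (0.306% higher, 0.45% lower and 0.756% either way), and 3 of 55 were higher at 30 min (Zfp711, Zfp606 and Zfp62, log2 ratios 1.599, 1.31 and 1.19, against 1.19% of all genes higher, 3.97% lower and 5.16% either way). With the authors' RPM the split at 30 min turned to 1 higher and 7 lower, while the median ratio set to 0 gave 4 higher and 0 lower. In RPFs 6 of 92 were lower at 10 min (3.46% of all genes lower, 0.151% higher, 3.61% either way) and 5 of 93 at 30 min (3.32%, 0.59% and 3.91%). Zfp251 had 216 RPFs in the unstimulated culture, 24 at 10 min and 21 at 30 min, with log2 ratios of -2.39 (-3.06 to -1.78) and -1.73 (-2.45 to -1.08). Zfp106, Zfp423 and Zfp704 were also lower at both times. The KCl libraries were among those with the wider RPF scatter, and its part in these counts was not tested.

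Translation was low among the members in every sample. TE was computed as log2 of RPF RPM over RNA-seq RPM wherever a gene reached 10 RNA-seq RPM and had any RPF. All 160 members had a value in at least 1 of 10 samples and 32 to 151 in each. The median TE of the members was below that of the other genes in 10 of 10 samples, by 0.57 in embryonic hippocampus (0.11 against 0.68), 1.06 in adult hippocampus (-0.17 against 0.89), 1.08 in adult cortex (0.24 against 1.32) and 0.67 to 1.01 in the 7 cultures, where the SD of the difference was 0.12. As a fold, the members' median was 1.48 to 2.11 times lower. In each sample 72.8% to 91.8% of the members with a value lay below the median of the other genes, where 50.3%, 50.4% or 50.5% of all genes did, depending on the sample.

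Single members kept a low TE across samples. Of 53 members with a TE value in 6 or more samples, 31 (58.5%) were below the other genes' median in every sample with a value and none was above it in every sample, while 21.1% of 4840 other genes were below in every sample. Sampling error was sizeable, since the median member with a TE value had 34 to 390 RNA-seq reads and 83 to 775 RPFs, depending on the sample. At matched RNA-seq levels of 10 to 30 RPM, a window added after seeing the data, the members' median remained 0.58 to 1.02 below that of the other genes in the same window.

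**Figure D3:**
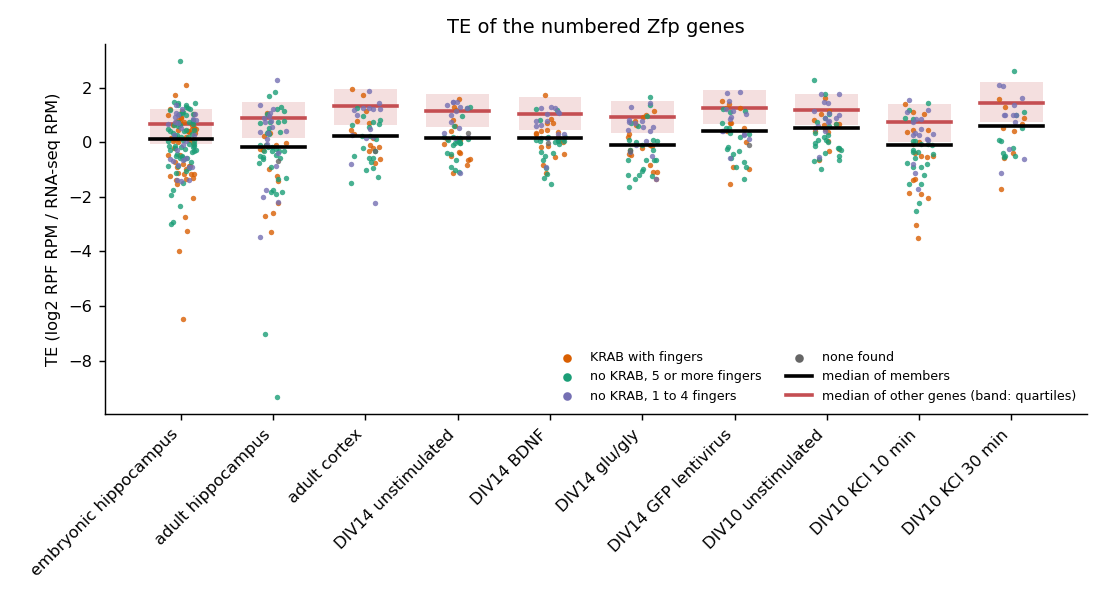
TE (log2 RPF RPM over RNA-seq RPM) of each member with at least 10 RPM in 10 samples, coloured by class, with the median of the members (black) and the median and quartiles of the other genes (red line and band). The members' median lies below the red line in each sample, and the points below -5 are the hippocampal values of Zfp180, Zfp386 and Zfp35.

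The classes differed in TE. The members with 1 to 4 fingers had a higher median than the KRAB class and the class with 5 or more fingers in 10 of 10 samples, and still lay below the other genes by 0.07 to 0.50. The KRAB class lay below by 0.57 to 1.24 and the class with 5 or more fingers by 0.59 to 1.40. In unstimulated DIV14 culture, for instance, the medians were 1.07 for 14 members with 1 to 4 fingers, 0.07 for 17 KRAB members and 0.06 for 21 members with 5 or more fingers. Across members within a sample, Spearman's rho between TE and the number of fingers was -0.41 to -0.04, and between TE and the share of cysteine -0.42 to -0.11, negative in 10 of 10 samples for both. These are correlations across 32 to 151 genes that share libraries, composition and ancestry, and the genes are not independent replicates. Protein length (rho -0.17 to 0.22) had no fixed sign.

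Other zinc-finger families were set beside the other genes in the same way, and low TE was not particular to the members. The Zbtb genes, which pair C2H2 fingers with a BTB domain, were also below the other genes in 10 of 10 samples. They lay 0.22 to 1.02 below in 3 to 26 genes, where the members lay 0.57 to 1.08 below. The Klf and Sp genes, with few fingers at the C terminus, were above by 0.05 to 0.56 in 2 to 8 genes. The Zscan and Zkscan genes ranged from 0.83 below to 0.69 above in 1 to 14 genes. Their largest set, 14 genes in embryonic hippocampus, lay 0.47 below. They were above only in adult hippocampus (4 genes), the GFP culture (1) and after 30 min of KCl (1). The silencing partners of KRAB proteins had median TE of 0.67 to 1.71 over the samples, with 15 to 23 genes each.

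Mean TE was taken over each gene's own samples, between which the other genes' median ran from 0.68 to 1.45. The ranking therefore depends in part on which samples a gene passed in. Zfp180 had the lowest mean TE of the members with 6 or more values. Its TE was -0.44 in embryonic hippocampus, -9.35 in adult hippocampus, -0.31 in adult cortex, -0.93 after BDNF, -0.64 after glu/gly and -0.61 in DIV10 culture, so the mean of -2.04 owes its depth to adult hippocampus, with 1 RPF and 457 RNA-seq reads. Zfp386, a KRAB gene with 9 fingers, followed with a mean of -1.72, and its lowest value, -6.48 with 5 RPFs and 254 reads, was in embryonic hippocampus, whereas its other 5 values ran from -1.34 to -0.03. Both were below the other genes in each of 6 samples, with or without the hippocampal value.

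Zfp131, Zfp236 and Zfp523 were low more evenly. Zfp523 had TE of -2.92 in embryonic hippocampus and -0.52 in adult hippocampus, and -2.53 to -0.64 in adult cortex and 6 cultures. Zfp236, with 29 fingers, ranged from -2.23 to -0.61 over 8 samples, and Zfp131 from -3.47 in adult hippocampus to -0.55 over 10 samples. All values of these 3 genes lay below the median of the other genes. The lowest values of Zfp523 (129 RPFs, 558 reads) and Zfp131 (54 RPFs, 419 reads) came from counts under 1/10 of the expected RPFs. Zfp106 had a mean of -0.69 over 10 samples, -1.41 to -2.22 in the 3 tissues and -1.14 to 0.52 in the cultures. Its value in adult cortex (-2.22, 261 RPFs and 834 reads) was likewise under 1/10 of the expected RPFs. Zfp365 was at -0.68 and -0.33 in adult hippocampus and cortex. Among members listed for a role, Zfp106, Zfp644, Zfp91 and Zfp292 lay below the other genes in 10 of 10 samples, by a mean of 1.76, 1.40, 1.31 and 1.02, as did the imprint regulator Zfp445 by 0.97, whereas Zfp148 differed from their median by a mean of 0.00.

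At the other end, Zfp207 had the highest mean TE (1.45). Its values were 0.70 in embryonic hippocampus, 2.27 in adult hippocampus, 1.89 in adult cortex and 0.72 to 2.11 in the 7 cultures, above the other genes in all but 2 samples. Zfp462 followed with 0.44, 0.39 and 0.68 in the same tissues and 1.43 to 2.61 in 4 cultures. Zfp711 had 2.99 in embryonic hippocampus, the highest TE of any member there, and 0.61 to 1.29 in 6 cultures. Zfp871, the one KRAB gene among the 5, was at 0.72, -0.11 and 0.14 in the tissues and at 1.15 to 1.74 in 6 cultures. Zfp532 ranged from -0.10 in embryonic hippocampus to 2.05 after 30 min of KCl. Zfp462, with 33 fingers the most of any member, was above the other genes' median in its 4 cultures and below it in the 3 tissues.

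Tail lengths were measured from 3′-end tags, by TAIL-seq in the cultures and adult cortex and by PAL-seq in the hippocampi and visual cortex, and the members were thinly covered. With a minimum of 50 tags, 21 members had a mean tail length in each of the 8 visual cortex mice, and in the single libraries 0 to 17 members did. In the mice the median of these 21 members was below that of 4300 other genes in 8 of 8 mice, by 0.25 to 7.92 nt, on average by 4.84 ± 2.32 nt (SD, n = 8 mice), with mean medians of 82.3 and 87.2 nt. With the members and genes at 50 tags in each mouse taken separately, the difference was 0.11 nt in the opposite direction in light 3 and 3.22 to 7.06 nt toward shorter member tails in the other 7 mice. In those sets 47.7% to 80.6% of members were below the other genes' median, where 50% to 50.3% of all genes were.

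The members are described by their mean over the 8 mice, which chose those named. Zfp622, which encodes a factor bound to ribosomal subunits, had the shortest tails, with 66.0, 67.2, 61.5 and 57.6 nt in the dark mice and 62.5, 68.5, 82.1 and 71.1 nt in the light mice, a mean of 67.1 ± 7.42 nt (SD, n = 8), shorter than in all but 1.28% of the other genes. Zfp260 followed at 73.1 ± 12.7 nt, and Zfp148, Zfp512 and Zfp523 at 74.6 to 74.9 nt. Zfp445 had the longest, with 110.6, 102, 90.7 and 87.1 nt in the dark mice and 96.7, 106, 137 and 105 nt in the light mice, a mean of 104 ± 15.5 nt that exceeded 97.3% of the other genes. Members between these extremes changed place from mouse to mouse: Zfp740 ran from 68.0 to 113 nt, and the SD over the mice had a median of 9.40 nt over the 21 members. Zfp365, the most abundant with 1013 to 4340 tags per mouse, had 92.2 ± 9.26 nt, and Zfp871, Zfp207 and Zfp664 had 89.3 to 89.9 nt.

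**Figure D4:**
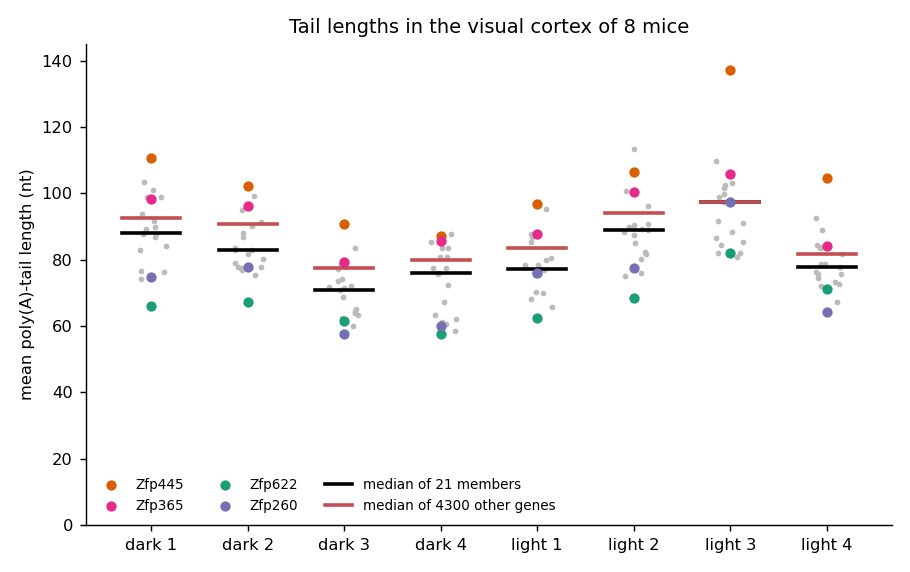
Mean poly(A)-tail length (nt) of the 21 members with at least 50 tags in each of 8 visual cortex mice, with 4 members coloured and the medians of the members (black) and of 4300 other genes (red). The black line lies under the red line in each mouse, by 0.25 nt in light 3. The 4 coloured members are among those with the longest and shortest mean tails in these mice.

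The cultures showed no common direction, and the size of the difference moved with the minimum of tags. Members were 5.72 nt longer than the other genes in unstimulated DIV14 culture (17 members), and 0.52, 5.32 and 0.16 nt shorter after BDNF (17), glu/gly (12) and 30 min of KCl (13). With at least 20 tags, which 57 to 77 members reached, the members were 0.58 nt longer in the unstimulated culture and 2.53, 1.77 and 2.54 nt shorter in the other 3. In adult cortex 8 members had a median of 98.6 nt against 99.5 nt, and in adult hippocampus only Zfp365 passed, at a listed tail length of 58.0 nt against 54.0 nt for the other genes. The shares of members below the other genes' median were 35.3%, 52.9%, 75% and 53.8% in these 4 cultures, where 49.9%, 50%, 50.1% and 50% of all genes were. In the other 5 cultures 2 to 4 members passed and their median was 1.75 to 6.49 nt above that of the other genes. The mean tails of Zfp365 were 114, 109 and 105 nt in the unstimulated, BDNF and glu/gly DIV14 cultures, with 189 to 264 tags, and those of Zfp622 were 102, 106 and 102 nt. No replicate exists to test these differences.

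The response to light was the only replicated comparison. Tags per gene were tested in 4 light against 4 dark mice for 131 members, and no member passed an adjusted p of 0.05 (edgeR quasi-likelihood test, Benjamini-Hochberg over 9554 genes), where 128 genes in all did (1.34%, with 116 higher in light and 12 lower). At an unadjusted p under 0.05 there were 18 members, 7 higher and 11 lower (13.7%, against 9.45% of all genes tested), and DESeq2 also called 0 members. The median log2 difference was -0.10 for the members and 0.00 for the other genes. Of the members 84 were lower in light (64.1%, against 50.8% of the other genes) and 47 higher. The 4 dark and 4 light mice did not overlap for 12 of 131 members (8 lower and 4 higher), where they did not for 5.67% of all genes. The remaining 29 members had too few tags to be tested.

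The 3 members with the smallest p were lower in light. Their levels are given in CPM, tag counts scaled to the total tags of each mouse with edgeR's TMM factors. Zfp763, a KRAB gene with 13 fingers, had 45.1, 49.2, 50.3 and 47.2 CPM in the dark mice and 31.4, 20.8, 21.5 and 42.9 in the light mice, without overlap. Its log2 difference was -0.72 (SE 0.20, edgeR adjusted p = 0.0863). Zfp386 had 41.7, 36.1, 58.1 and 51.2 CPM in the dark and 24.8, 24.7, 30.8 and 33.9 in the light, a log2 difference of -0.66 (SE 0.19, edgeR adjusted p = 0.110). Zfp507 had 12.3, 13.5, 15.7 and 19.2 against 4.96, 11.7, 7.55 and 4.84 CPM, a log2 difference of -1.02 (SE 0.33, edgeR adjusted p = 0.187), from only 6 to 65 tags per mouse. Among members listed or named for other reasons, the mice also did not overlap for Zfp292 (log2 difference -0.50), Zfp622 (0.32), Zfp609 (0.63) and Zfp236 (0.44), with edgeR adjusted p of 0.227, 0.237, 0.245 and 0.471.

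These calls depended on single mice and on the filter. Zfp763 passed when light 4 was left out (log2 difference -0.99, edgeR adjusted p = 0.00401) and when no low-count filter was used (adjusted p = 0.0182 by edgeR). Without dark 2, the most deeply sequenced mouse, Zfp386 (log2 difference -0.79, edgeR adjusted p = 0.0410) and Zfp39 (-1.33, edgeR adjusted p = 0.0195) passed. The numbered genes outside the member list held 1 call: Zfp948, named here after its values were seen and at most 4.66 RPM in the 3 RNA-seq libraries, had 7.52, 13.7, 10.99 and 12.8 CPM in the dark and 28.9, 31.8, 28.5 and 20.6 in the light, a log2 difference of 1.23 (SE 0.24, edgeR adjusted p = 0.00523). None of 20 silencing partners tested passed, and Trim28 had a log2 difference of -0.27 (SE 0.12, edgeR adjusted p = 0.464).

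**Figure D5:**
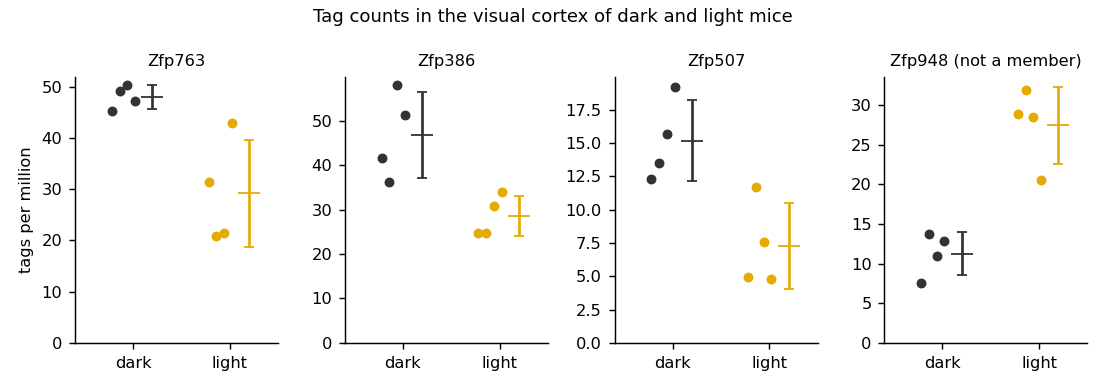
Normalised tag level (CPM, linear axis) in 4 dark and 4 light mice for the 3 members with the smallest p and for Zfp948, a numbered gene below the member cutoff, with the mean and SD beside the points. Light mice lie below dark mice for Zfp763, Zfp386 and Zfp507, none of which passed the adjusted threshold, and above them for Zfp948, which did.

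Marker levels in visual cortex overlapped between the groups for neurons (summed markers at 9289 to 10281 CPM in the dark, without TMM factors, and 9345 to 10804 in the light) and oligodendrocytes (800.4 to 1377 and 539 to 1000), and nearly separated for astrocytes (3075 to 3575 and 2699 to 3082). All markers of these 3 lists were detected in each mouse, and their part in the members' differences was not tested. Zfp365, the most abundant member, had 855 to 972 CPM in the dark and 837 to 925 in the light (log2 difference -0.02, SE 0.08).

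Tail lengths after light were tested for the 21 members, and none passed (limma, Benjamini-Hochberg over 4321 genes), where 10 genes in all did (0.231%, each longer in light). At an unadjusted p under 0.05 there were 2 members, Zfp512 and Zfp445, against 3.93% of all genes. The differences were 13.7 nt for Zfp512 (67.8 ± 8.96 in the dark and 81.6 ± 6.21 in the light, SD), 13.6 nt for Zfp445 and 12.6 nt for Zfp266, each with an SE of 6.68 nt and a limma adjusted p of 0.999. The value of Zfp445 rested on light 3, without which it was 4.93 nt. Tails were longer in light in 20 of 21 members, but also in all but 15.8% of the other genes, and the median differences were 5.70 and 3.74 nt. No member had dark and light mice that did not overlap (0.625% of all genes did). The count over all genes rested on single mice, running from 1 without dark 3, dark 4 or light 2 to 21 without light 4.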

How the data were processed

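RNA-seq, RPFs and poly(A)-tail lengths were analysed from deposited per-gene tables. The authors mapped reads to mm10 with STAR 2.4.2 (tail tags with STAR 2.5.4b, unique matches only) and counted reads on the coding sequence of 1 transcript per gene, leaving out its first 50 nt. Handling of multimapping RNA-seq and RPF reads is not given in the sources used here. The tables hold deposited counts of reads or tags, the authors' RPM, the authors' log2 TE (used only as an alternative) and tail lengths in nt, a mean over tags (medians in the hippocampal tables, as their values fall on multiples of 0.5).

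TE was the log2 ratio of RPF RPM to RNA-seq RPM. Ratios between single libraries used reads scaled by reads on listed genes, a 0 being set at 3 reads, with 2-fold and 10 RPM in 1 of the 2 libraries as threshold. Light was tested with edgeR 4.0.16 on tag counts (TMM, filterByExpr) and limma 3.58.1 on tail length, with DESeq2 1.42.0 as alternative, in R 4.3.3. The main edgeR and limma fits were also run on simulated data. The sources do not say whether the mice are littermates, so p-values measure the spread between mice as sampled.

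Coordinates, coding sequences and linker stretches came from RefSeq on GRCm38.p6, the patch release of mm10, read with pysam 0.24.0. Fingers were counted as C, 2 to 4 residues, C, 12 residues, H, 3 to 5 residues, H. A KRAB box was called from a degenerate 11-residue pattern around its conserved Asp-Val start, and a linker stretch from His, the linker, Tyr or Phe, any residue and Cys. The members, gene lists and tests were chosen with earlier results of these data known. Members named were the 5 most abundant per kb in each library of the rule, the 5 highest and lowest in hippocampal RPF ratio, in mean TE (6 or more values) and in tail length (50 tags in each mouse), the 3 with the smallest p in each light test, those nearest the cutoff and 23 members of a list of 28 with a known role. Alternatives were other cutoffs, scalings, tests and tag minimums, a replicate block, and leaving out each mouse.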

Additional observations from a re-analysis of the deposited data

Results flagged for a closer look

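In the light comparison, each mouse was summarised by the median log2 difference of the members from the dark mean, minus that of the other genes. Among the light mice, light 4 stood apart at 0.0167, whereas light 1, light 2 and light 3 were at -0.117, -0.0955 and -0.0971, and the 4 dark mice ranged from -0.0678 to 0.0305. It was flagged because its gap to the nearest light mouse took up most of the range of the group. This was 1 of 34 groups of 4 examined, and chance flags about 1 in 20 such groups. Without light 4 the members' median difference from the other genes was -0.12 in place of -0.10.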

How the results depend on the processing

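The members' TE stayed below that of the other genes in each of 10 samples under all 6 alternatives, with a median over samples of -0.996 to -0.813 against -0.88. The tail difference over the 8 mice stayed negative (-4.20 to -3.77 nt against -4.38 nt), but single samples turned. With at least 100 tags the difference became -0.43 nt in unstimulated DIV14 culture (3 members), 0.061 nt after BDNF (2), 5.84 nt after 30 min of KCl (1) and -0.16 nt in light 3, while 20 tags (57 to 77 members) gave 0.58, -2.53 and -2.54 nt in these 3 cultures and -1.77 nt after glu/gly, and with 20 RPM in the rule it became 0.39 nt after BDNF.
Light expression called 1 member without the low-count filter and 0 under the other count settings, and leaving out single mice gave 0 to 2 (2 without dark 2, 1 without light 4). The count of tail changes over all genes fell from 10 to 1 on the log2 scale and to 1 with weights from tags, and ran from 1 to 21 without single mice. The sample numbers did not pair dark with light mice (correlations of -0.20 to 0.03 in expression and -0.11 to 0.04 in tails, no mouse best with its own number). With the replicate block, 0 members and 113 genes were called in expression and 0 members and 1 gene in tails.
For the single-library counts of members past 2-fold in either direction, the fold and the RPM filter mattered most. The 30 RPM filter also cut the number of members tested. Shares over all genes at 30 RPM and at 1.5-fold are not given. For adult against embryonic hippocampus in RNA-seq, 30 RPM gave 28 of 52 members tested, against 78 of 154. In RPFs it gave 47 of 65, against 89 of 135. With 10 RPM in adult hippocampus the counts were 27 and 47, each of 75. At 1.5-fold, RNA-seq and RPF counts rose to 38 and 31 for adult cortex against DIV14, 40 and 64 for adult cortex against adult hippocampus, 15 and 16 for DIV10 against DIV14, 8 and 8 for BDNF, 9 and 10 for glu/gly, 10 and 22 for KCl at 10 min, 15 and 15 for KCl at 30 min, and in RNA-seq to 4 for miR-1 and 4 for miR-155. At 30 RPM the RNA-seq and RPF counts were 2 of 10 and 7 of 29 members tested for adult cortex against DIV14. They were 6 of 17 and 9 of 29 for adult cortex against adult hippocampus. For DIV10 against DIV14 they were 0 of 7 and 0 of 24, and for BDNF 0 of 8 and 0 of 23. The count was 0 of 6 for glu/gly RNA-seq and 2 of 24 for KCl RPFs at 10 min. For KCl at 30 min the counts were 0 of 5 and 2 of 24. With the RPM scaling of the authors, counts were 27 (2 higher, 25 lower, against 10 and 6) for adult cortex against adult hippocampus RNA-seq, 0 and 4 for glu/gly, 11 for KCl RPFs at 10 min, 8 (1 higher, 7 lower, against 3 and 0) for KCl RNA-seq at 30 min and 1 for miR-1, and with the median ratio set to 0 the glu/gly RNA-seq count was 0. The cause of these changes was not tested.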

Other observations

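RPFs also showed numbered Zfp genes that the RNA-seq rule left out. Of 167 numbered genes past 10 RPM in RPFs in either hippocampus, 135 were members. Over all 167 there were 93 lower and 17 higher in adult hippocampus by 2-fold or more. Members made up 77 and 12 of these. The median log2 ratio of the 167 was -1.25. Of all genes 33.6% were lower and 25.8% higher, and the genes outside the members had a median of -0.29. Most of the 167 were thus genes chosen by the rule. The 10 RPM filter also passes genes through the embryo alone, so these counts are a description only. In RPFs of adult cortex against unstimulated DIV14 culture, 114 numbered genes passed the filter, with 6 higher and 5 lower, all of which were members.

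The 178 numbered genes below the cutoff are described by their sequence. Their median number of fingers was 11 against 10, the median G and C content at the last codon position was 41.1% against 54.8% in members and 59.0% in the other genes, and 80.9% of them lay within 1 Mb of another numbered Zfp gene, against 60.0% of members.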
